A study of Mus musculus with 40 samples.

Results

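The 300 largest stitched domains of histone H3 lysine 27 acetylation (H3K27ac) in mouse interscapular brown fat are described here. Peaks of the 8 H3K27ac lists were merged, regions with a peak in at least 5 lists were kept, and kept regions on chromosomes 1 to 19 no more than 12.5 kb apart were stitched into domains. This gave 15798 regions in 10068 domains. The 300 domains were chosen by the summed length of their regions, so that their length and H3K27ac values are a description and carry no test. They made up 2.98% of the domains and held 1557 regions with 19.1% of all region bases.

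The brown fat came from wild type C57BL/6N mice, 20 weeks of age, with no genetic alteration in any group. The labels carry 8 numbers, each taken here as 1 mouse. Temperature and diet were crossed, with 2 mice in each of 4 conditions. Mice 1 and 2 were warm on chow (NCD), mice 4 and 5 were cold on NCD, mice 7 and 8 were warm on a high fat diet (HFD), and mice 10 and 11 were cold on HFD. HFD was fed for 12 weeks from the age of 8 weeks, and cold was 4 °C for 24 h. For each mouse the authors deposited 1 peak list for each of H3K27ac, H3K4me3, H3K4me1 and H3K27me3. The libraries were made from dissociated whole tissue, so fewer cells of a type and less signal in each cell cannot be told apart. The methods speak of tissue of more than 1 mouse in each experiment, and the labels give 1 number for each list. A number may therefore stand for pooled tissue.

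H3K27ac marks active promoters and enhancers, and long clusters of acetylated regions are known in many tissues to lie at genes that define the cell. Brown fat burns fatty acids to make heat. Noradrenaline acts on beta-adrenergic receptors, lipolysis frees fatty acids from lipid droplets, and these feed mitochondria in which UCP1 lets protons leak. PPAR factors bind as dimers with RXR to a direct repeat of AGGTCA with a spacer of 1 base, called DR1, and C/EBP factors bind an 8-base palindromic site. H3K4me3 marks promoters, H3K4me1 marks enhancers and H3K27me3 marks repressed genes.

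Sequences from GRCm38 are shown to let the reader see what lies under the acetylated regions of the best known genes. The first window is 200 bases around the H3K27ac summit that the most lists share (7 of 8) outside exons in the largest domain, that of Ppara, and lies in an intron of the non-coding gene Lncppara, at -65085 bp from the Ppara start site. The second is the window shared by all 8 lists in the domain of Ucp1, at -12096 bp from its start site and outside any annotated gene, added after its values were seen. Capitals mark a match to the C/EBP letters TTNCNNAA on either strand. The Ppara window held none of the 7 motifs searched and had a GC content of 69%.
Ppara, chr15:85670379-85670578, plus strand: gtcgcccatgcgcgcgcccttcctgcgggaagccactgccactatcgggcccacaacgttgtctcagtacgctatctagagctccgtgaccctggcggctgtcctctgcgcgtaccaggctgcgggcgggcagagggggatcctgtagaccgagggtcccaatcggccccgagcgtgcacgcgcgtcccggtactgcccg
Ucp1, chr8:83278156-83278355, plus strand: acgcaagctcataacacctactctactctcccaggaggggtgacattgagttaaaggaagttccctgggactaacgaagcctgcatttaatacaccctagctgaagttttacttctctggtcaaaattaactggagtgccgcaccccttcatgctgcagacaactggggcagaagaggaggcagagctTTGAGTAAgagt

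DR1 matches with at most 1 mismatch numbered 221 in the member regions and lay in 151 of the 300 domains. Of these, 24 had no mismatch, 82 lay in repeats that the reference genome masks, and 64 lay under an H3K27ac peak in at least 7 mice. The 7 matches below are all those that could be shown in the domain of a listed gene, outside annotated exons and masked repeats, and under an H3K27ac peak in at least 7 mice. They were chosen after their values were seen. Capitals mark the 13 bases of the match, read on the strand given, with 14 bases on each side. Each domain is named by 1 of its genes. That of Egfl7 also holds Agpat2, a listed gene of triglyceride synthesis, whose start site is nearer to the match.
Egfl7 domain, chr2:26612129-26612169, minus strand: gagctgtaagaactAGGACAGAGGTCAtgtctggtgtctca
Hadha domain, chr5:30148637-30148677, minus strand: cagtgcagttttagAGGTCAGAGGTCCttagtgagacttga
Hadha domain, chr5:30159199-30159239, minus strand: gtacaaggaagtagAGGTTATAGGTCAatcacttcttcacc
Cebpb domain, chr2:167692056-167692096, plus strand: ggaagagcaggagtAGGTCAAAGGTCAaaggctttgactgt
Vegfa domain, chr17:46029451-46029491, plus strand: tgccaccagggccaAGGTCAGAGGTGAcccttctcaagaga
Hk2 domain, chr6:82836613-82836653, minus strand: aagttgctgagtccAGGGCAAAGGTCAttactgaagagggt
Gpd1 domain, chr15:99716557-99716597, minus strand: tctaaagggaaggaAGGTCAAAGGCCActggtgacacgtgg

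The match of Cebpb was without mismatch, lay 3161 bp downstream of the start site and was under both an H3K27ac and an H3K4me3 peak in 7 mice. The match of Gpd1, glycerol-3-phosphate dehydrogenase, lay at -938 bp from its start site, with H3K27ac in 7 mice and H3K4me3 in 2. DR1 matches were no denser in the largest domains than in the next 300 by rank. They numbered 0.347 per 10 kb of region in the largest, 0.349 in the next 300 and 0.302 in all others. In windows of 200 bp at the shared summits, allowing 2 mismatches, 4.43% of the 1557 windows of the largest domains held DR1 against 3.37% of the windows of all 15798 regions. Of the 1077 windows of the next 300 domains, 4.09% held it. C/EBP letters were in 29.1% against 27.4%, and in 29.7% of the windows of the next 300. For the other motifs the shares were 0.450% against 0.456% for NF1 (TTGGC and its reverse complement with a spacer of 5 bases, 1 mismatch), 0.771% against 0.880% for ERR (TCAAGGTCA), 0.257% against 0.247% for CRE (TGACGTCA), 8.99% against 10.5% for EBF (CCCNNGGG) and 4.75% against 4.25% for AP-1 (TGANTCA). In the windows of the next 300 domains the shares of these motifs, in the same order, were 0.371%, 1.02%, 0.186%, 8.45% and 4.18%. Over all region bases the order was not always that of the windows. C/EBP letters numbered 23.2 per 10 kb in the largest domains, 24.2 in the next 300 and 24 in all others. ERR letters numbered 0.488, 0.429 and 0.421 per 10 kb in the same sets, and CRE letters 0.102, 0.111 and 0.194. The ERR letters hold the AGGTCA of DR1, and all motifs were searched on both strands. A match is a stretch of letters and was not tested as a binding site.

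The 300 domains had summed lengths from 14017 to 73132 bp with a median of 18848 bp, and spans of 14025 to 114348 bp. A domain held 1 to 15 regions, with a median of 5, and 6 domains were a single long region, among them those of Pde4d (18601 bp), Fabp4 (15087 bp), Gpam (14581 bp) and Lipe (14025 bp). The plot of summed length against rank shows a steady decline with no step at rank 300. The last domain taken, nearest to Ppp1r3b, had 14017 bp, and the first left out, that of Nfic, had 14012 bp. In 234 of the 300 domains at least 1 protein-coding start site lay inside, and in the other 66 the nearest start site was a median of 32787 bp away. A start site lay inside 199 of the next 300 domains and 4925 of the 9468 others. In all, 439 protein-coding genes were inside or nearest.

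**Figure D1:**
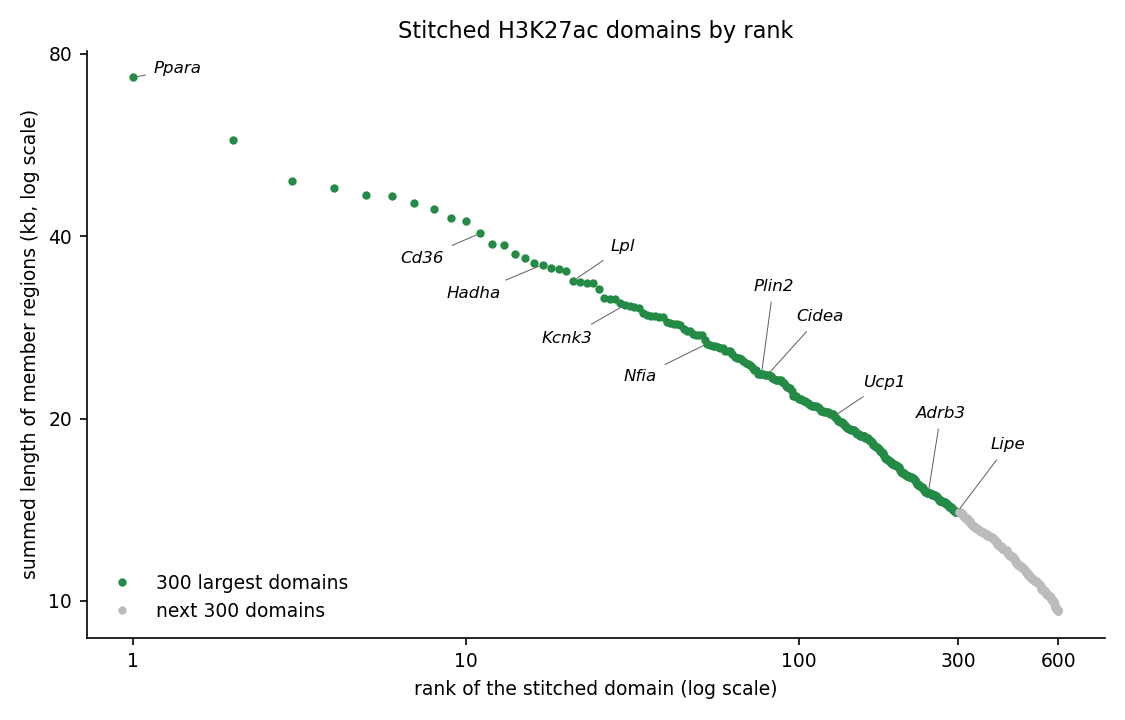
Summed length of the member regions in kb against rank, both on log scales, for the 300 largest domains (green) and the next 300 (grey), with names of chosen genes. Length falls from 73.1 kb at Ppara to about 14 kb at Lipe without a step at rank 300.

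The largest domain was that of Ppara, the PPAR isoform that drives fatty acid oxidation genes (chr15:85633406-85747753). It held 15 regions with 73132 bp. The span also holds the start sites of Lncppara and of the microRNA genes Mirlet7c-2 and Mirlet7b. H3K27ac coverage, the percent of a domain's region bases under the H3K27ac peaks of a mouse, was 51.3% and 74.2% in the warm NCD mice 1 and 2, 76.3% and 80.5% in the cold NCD mice 4 and 5, 10.9% and 67.4% in the warm HFD mice 7 and 8, and 48.9% and 87.3% in the cold HFD mice 10 and 11. Mouse 7 was lowest, and the cold and warm groups overlapped. When domains were built and ranked in each mouse's own list, the Ppara domain ranked 1 or 2 in 7 mice and 15 in mouse 7. H3K4me3 peaks lay in it in all 8 mice, both close to the start site of Ppara and at several places far upstream, and covered a median of 26.2% of its region bases. H3K4me1 peaks lay in it in 7 mice.

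**Figure D2:**
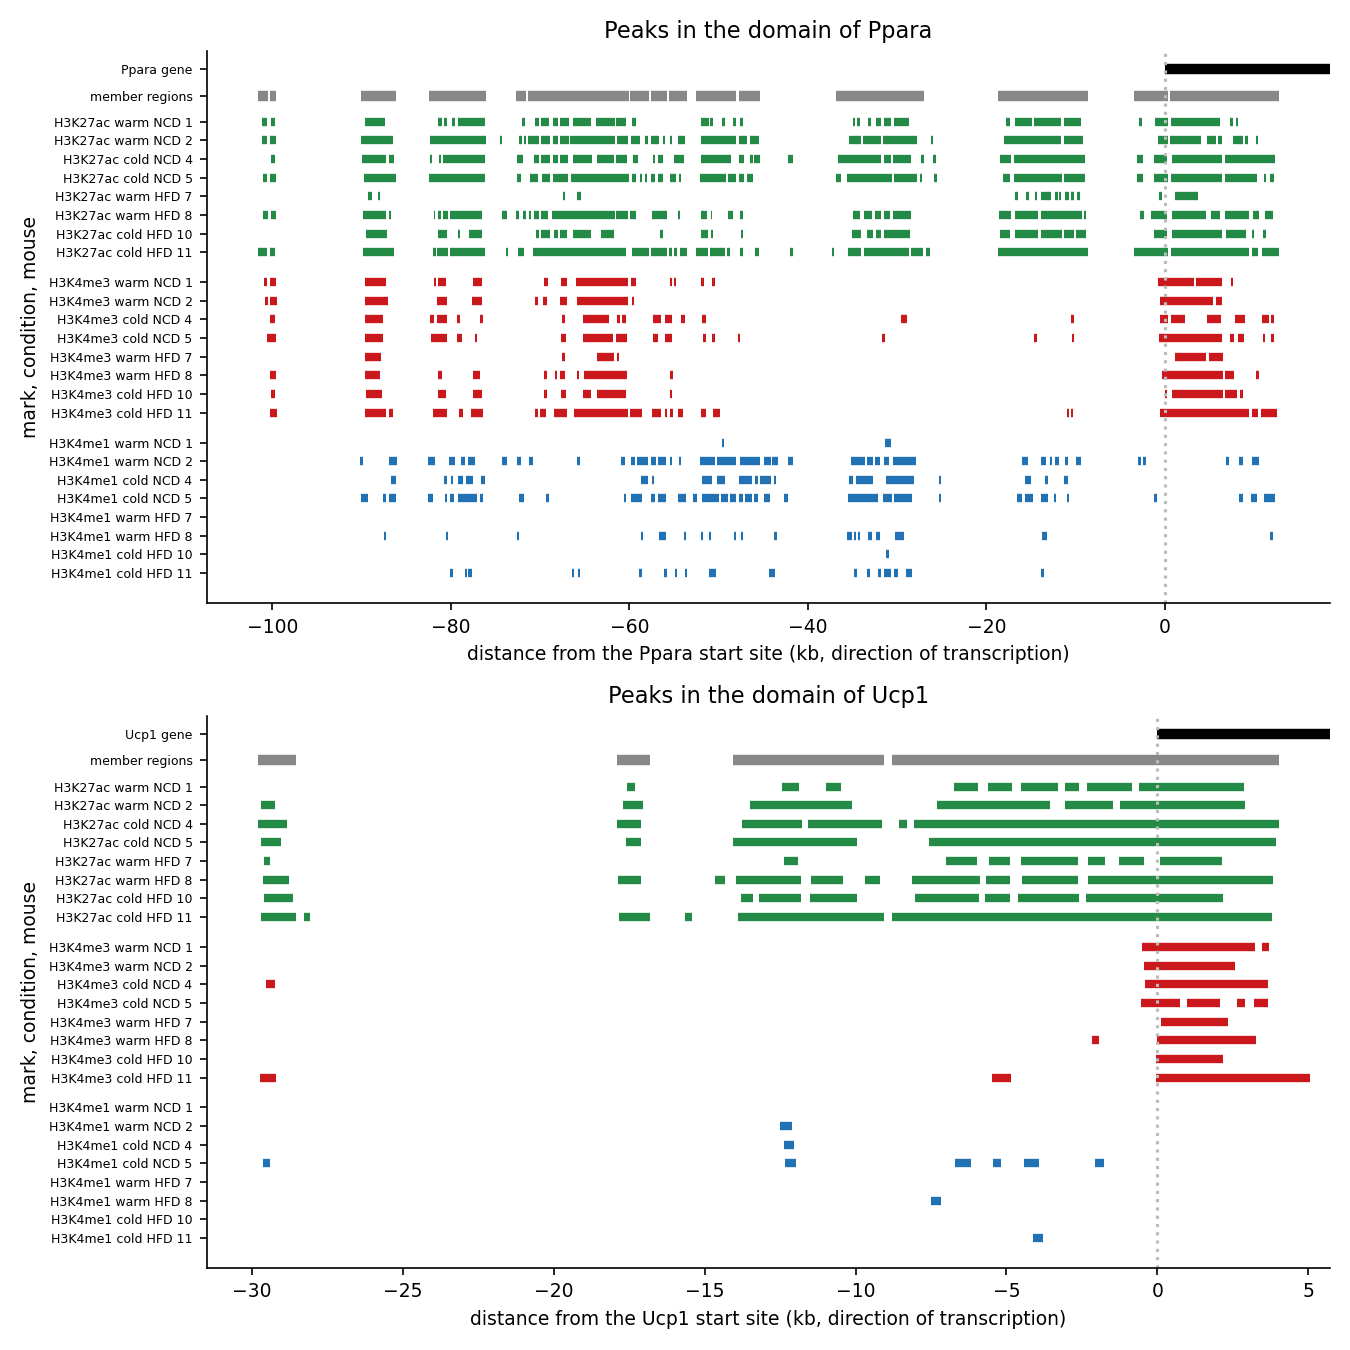
Peaks in the domains of Ppara (top) and Ucp1 (bottom) against distance from the start site in kb, with a row for each mouse and mark (H3K27ac green, H3K4me3 red, H3K4me1 blue), the gene in black and the member regions in grey. H3K27ac reaches about 100 kb upstream of Ppara and about 30 kb upstream of Ucp1. H3K4me3 is close to both start sites in all 8 mice. It also lies at several places far upstream of Ppara, and about 30 kb upstream of Ucp1 in mice 4 and 11. H3K4me1 is absent or nearly so in mice 1, 7 and 10.

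The next largest domains held genes of several kinds. Rank 2 held Phospho1, a phosphatase, with Gngt2 and Abi3 (57698 bp), and rank 4 was nearest to Tns1, a focal adhesion protein (48067 bp). Rank 5, nearest to Frmd8, held the start sites of the abundant non-coding RNAs Malat1 and Neat1 (46835 bp). Rank 6 held Egfl7, an endothelial gene, with Fam69b, Gm20532 and Agpat2, an enzyme of triglyceride synthesis (46649 bp). Ranks 7 and 8 held Actn4 with Eif3k, and Ergic1 with Dusp1. Rank 9 overlapped the end of Pparg, the PPAR isoform that drives adipocyte differentiation, whose body was overlapped by further domains at ranks 479, 824 and 2829. Rank 10 held the basement membrane collagens Col4a1 and Col4a2. Ranks 12, 14, 16, 18 and 19 held Fam53b, Exoc8 with Sprtn and Egln1, Cyth1, Klf13 with E030018B13Rik, and Tns1 with Rufy4. Ranks 11, 13, 15, 17 and 20 held metabolic and regulatory genes of brown fat that are described by role below.

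Thermogenesis and beta-adrenergic signalling had 9 of 31 listed genes in the largest domains, against 2.11% of all 20807 protein-coding genes of these chromosomes. These lists were chosen with earlier results known, and the counts carry no test. The members were Kcnk3 (rank 30), a potassium channel, Ppargc1b (32), a coactivator, Prkar2b (61), a regulatory subunit of protein kinase A, Cidea (80), a lipid droplet protein of brown fat, Adrb1 (114) and Adrb3 (244), the beta-adrenergic receptors, Ucp1 (127), Pde4d (159), which degrades cyclic AMP, and Atp2a2 (281), a calcium pump. Ppargc1a, the related coactivator, was at rank 622. Dio2, the deiodinase, was the nearest gene of a domain at rank 996, 89865 bp from its start site. The Dio2 gene itself overlapped only a domain at rank 3304.

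The Ucp1 domain (chr8:83260560-83294374) held 4 regions with 20176 bp. H3K27ac coverage was 47.8% and 69.2% in the warm NCD mice 1 and 2, 92% and 83.2% in the cold NCD mice 4 and 5, 38.1% and 81.3% in the warm HFD mice 7 and 8, and 68.8% and 97.3% in the cold HFD mice 10 and 11. The highest 3 mice were both cold NCD mice and mouse 11, and the cold group overlapped the warm one because mice 2 and 8 were above mouse 10. In mouse 7, whose H3K27ac list was the shortest, the Ucp1 domain ranked 10 among its own domains, and in the other mice it ranked between 49 and 163. H3K4me3 covered a median of 16.5% of its region bases and lay close to the start site in all 8 mice. H3K4me1 lay in it in 5 mice, and in mice 2, 4 and 5 a peak overlapped the window printed above.

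Among the adrenergic receptors, H3K27ac coverage of the Adrb3 domain ranged from 12.5% in mouse 7 to 95.8% in mouse 11 with a median of 79.5%, and that of the Adrb1 domain from 14.5% to 93.7% with a median of 84.5%. Coverage of the Cidea domain ranged from 25.8% to 84.7% with a median of 77%. Coverage of the Kcnk3 domain ranged from 2.67% to 91.3% with a median of 58.4%. Mouse 7 was lowest at all 4 domains, and mouse 11 was highest at all but Cidea, where mouse 8 was.

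Transcription factors of brown fat had 8 of 38 listed genes in the largest domains. Besides Ppara these were Zbtb16 (rank 13), Nfia (53), Zbtb7b (58), Cebpb (89), Cebpa (103), Bcl6 (116) and Klf9 (193). Zbtb16 encodes a zinc finger repressor, and its domain (chr9:48706023-48761801, 38670 bp) overlapped its gene, 74144 bp from the nearest start site. H3K27ac coverage there ranged from 14% to 89.1% with a median of 72.2%. This domain had little H3K4me3, with a median of 1% of bases, and H3K4me1 in 6 mice with a median of 18.6%. At Nfia, which acts with C/EBP and PPARG factors at brown fat enhancers, H3K4me3 covered a median of 38.7% and H3K4me1 2.78%. Coverage of H3K27ac at Cebpb had a median of 76.7% and at Cebpa 63.6%, with mouse 7 lowest at both (16.3% and 1.19%). Prdm16 and Ebf2, determinants of brown fat identity, were outside, with best ranks of 419 and 810.

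Genes of lipid droplets, lipolysis and triglyceride synthesis had 20 of 30 in the largest domains, the highest share of any list. The perilipins, which coat the droplet, were all present: Plin4 and Plin5 in 1 domain (rank 66), Plin2 (77), Plin1 (112) and Plin3 (230). The lipases of the 3 steps of lipolysis were Pnpla2 (50), Lipe (298) and Mgll (25), and G0s2 (105), an inhibitor of the first, was also a member. Triglyceride synthesis was represented by Agpat2 (6), Pck1 (20), Dgat2 (41), Lpin1 (74), Gpd1 (224), Gpat4 (248) and Gpam (271). Pnpla3 (239), the glycerol channel Aqp7 (199), and Cav1 (276) and Cavin1 (215) of the caveolae completed the list.

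The Lipe domain was a single region of 14025 bp that H3K27ac covered in 92.1% and 95.4% in the warm NCD mice 1 and 2, 95% and 96.5% in the cold NCD mice 4 and 5, 61.9% and 82% in the warm HFD mice 7 and 8, and 83% and 96.7% in the cold HFD mice 10 and 11. It had the highest H3K4me3 coverage of the 300 domains, with a median of 87.9%. In the Plin1 domain H3K27ac coverage ranged from 29.2% in mouse 7 to 96.8% in mouse 11, and in the Mgll domain from 6.12% to 89.9% in the same mice. These gene counts changed with the choice of regions and of ranking. When regions near protein-coding start sites (within 2500 bp) were dropped before stitching, 3 of the 30 genes of this list were in the largest domains. Such regions were dropped whole, with their bases far from the start site, so the part of promoters was not tested. The count was 13 when domains were ranked by span.

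Fatty acid uptake and oxidation had 11 of 31 genes. The uptake genes were Cd36 (rank 11), the fatty acid translocase, Lpl (21), lipoprotein lipase, Angptl4 (113), its inhibitor, and Fabp4 (243), a fatty acid carrier. Acsl1 (56 and again 253) and Acsl5 activate fatty acids, Cpt1b (255) carries them into mitochondria, Hadha and Hadhb (both 17) and Hadh (200) are enzymes of beta-oxidation, and Acot11 (150) is a thioesterase. The count was 7 when domains were ranked by span and 4 without regions at start sites.

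The Cd36 domain (chr5:17827439-17894553) held 40416 bp. H3K27ac coverage was 51.1% and 63% in the warm NCD mice 1 and 2, 89.1% and 64.9% in the cold NCD mice 4 and 5, 35.9% and 85.9% in the warm HFD mice 7 and 8, and 70.8% and 95% in the cold HFD mice 10 and 11. Mouse 7, at 10.6% over all members, was thus less far below the others here, and Cd36 ranked 2 among its own domains. The Hadha and Hadhb domain was close to this, from 26.4% in mouse 7 to 95% in mouse 11. At Lpl the span was wider: 21.6% and 54.5% in the warm NCD mice 1 and 2, 40.4% and 44.8% in the cold NCD mice 4 and 5, 15.1% and 83.1% in the warm HFD mice 7 and 8, and 32.8% and 90.9% in the cold HFD mice 10 and 11. There the highest 2 mice were both on HFD, and the other HFD mice were within or below the NCD range.

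Lipogenesis had 4 of 20 genes: Acacb (rank 15), Fasn (42), Acaca (108) and Elovl6 (151). Fasn, fatty acid synthase (chr11:120817318-120875191), had H3K27ac coverage of 69.6%, 97.1%, 56.6% and 68.5% in the NCD mice 1, 2, 4 and 5. In the HFD mice 7, 8, 10 and 11 it was 24.7%, 75.1%, 4.5% and 32.3%. Both cold HFD mice were below every NCD mouse, although mouse 11 had the highest coverage over all members (87.2%). The groups on HFD and NCD overlapped because mouse 8 was high. Acaca, which makes malonyl-CoA for fatty acid synthesis, had 60.4%, 81.8%, 54% and 61.1% in mice 1, 2, 4 and 5. In mice 7, 8, 10 and 11 it had 4.34%, 94.3%, 7.2% and 38%. Here mouse 8 was the highest of all mice, and the other 3 HFD mice were below all NCD mice, as they were at Fasn. Acacb, whose product limits entry of fatty acids into mitochondria, did not follow this order, with 47.2%, 78.9%, 74.1% and 78% on NCD and 15.7%, 77.4%, 48.4% and 92.3% on HFD. Elovl6, an elongase, was highest in mice 8 and 11 (89.8% and 95.9%) and between 17.5% and 51.1% in the other 6.

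**Figure D3:**
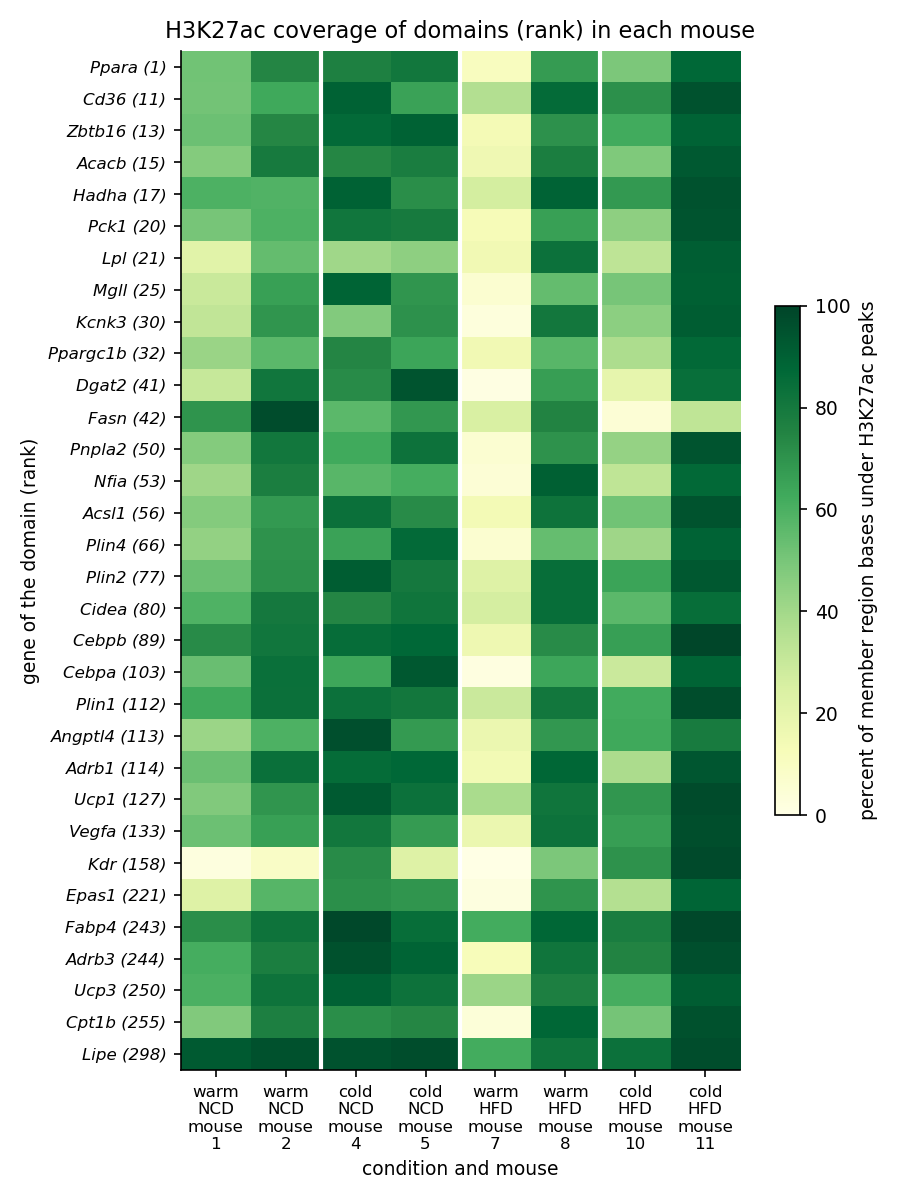
Percent of the region bases under H3K27ac peaks for domains of 32 genes (rows, rank in brackets) in each of the 8 mice (columns, by condition). Mouse 7 is palest in most rows, Fabp4 and Lipe stay above 60% in every mouse, and Fasn is at 4.5% and 32.3% in the cold HFD mice.

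Insulin action and glucose use had 6 of 30 genes. Among these were Pfkfb3 (rank 55) and Hk2 (59 and 170) of glycolysis, Akt2 (92), Pdk4 (106), which blocks pyruvate oxidation, and Trib1 (139). Mitochondrial respiration and biogenesis had 3 of 29, among them Tfb2m (51) and Idh3a (148). The circadian clock had 2 of 21, the repressors Nr1d1 (147) and Cry2 (169). Secreted factors had 2 of 24, Sparc (98) and Vegfa (133), the vascular growth factor. The genes of the hormones leptin (Lep) and adiponectin (Adipoq) were outside: no domain overlapped Lep, and Adipoq was at rank 1075. At the locus of the study, no stitched domain overlapped the non-coding gene Gm15551, and Camk2d beside it had domains of ranks 1428, 2782 and 8255.

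**Figure D4:**
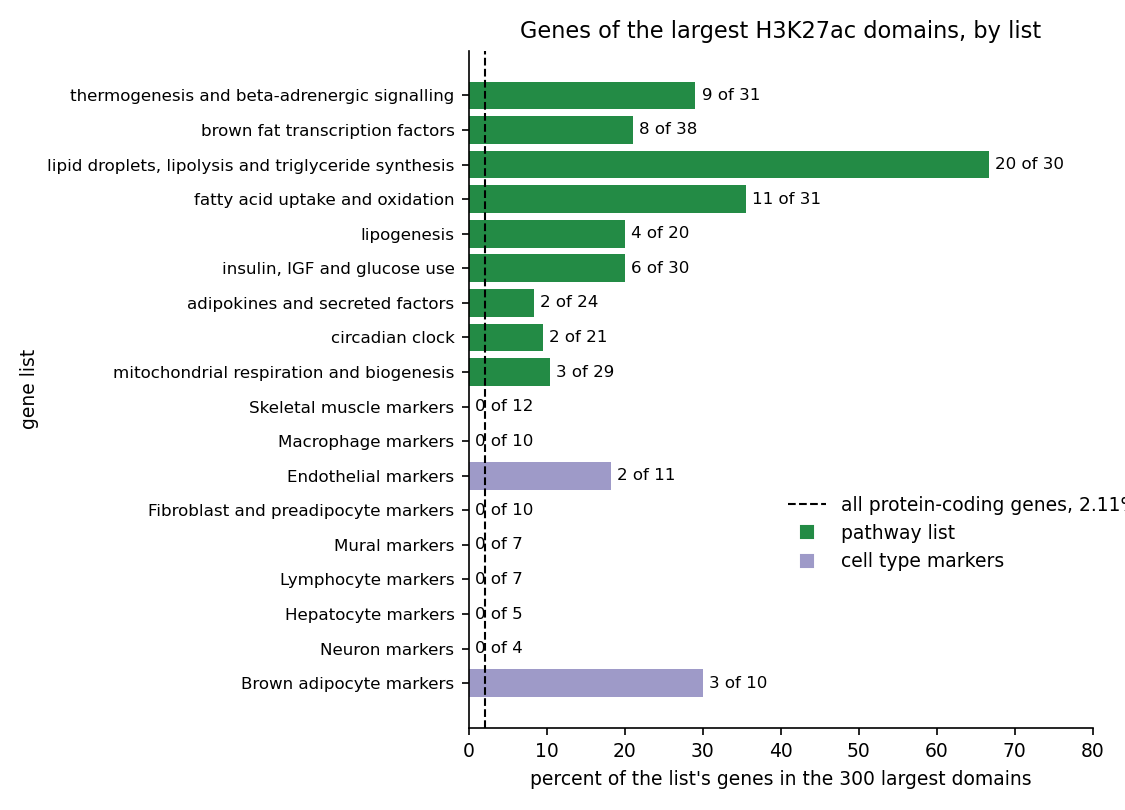
Percent of the genes of each list on chromosomes 1 to 19 that belong to the 300 largest domains, for pathway lists (green) and cell type markers (violet), with counts beside the bars. The dashed line is the 2.11% of all protein-coding genes. The list of lipid droplets, lipolysis and triglyceride synthesis reaches 20 of 30. The 7 marker lists at 0 hold only 4 to 12 genes each, where 0 is near the share of all genes.

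Markers of cell types were read in the same way. Of 10 markers of brown adipocytes, Ucp1, Cidea and Fabp4 belonged to the largest domains. Of 11 endothelial markers Egfl7 (rank 6) and Kdr (158), a VEGF receptor, did, and this count ranged from 0 to 3 over the alternatives. None of the listed markers of skeletal muscle, macrophages, fibroblasts and preadipocytes, mural cells, lymphocytes, hepatocytes or neurons did. These lists hold 4 to 12 genes each, so counts of 0 are near the 2.11% of all protein-coding genes. Such counts do not tell which cell types were present. Over the alternatives, the macrophage list and the fibroblast and preadipocyte list each ranged from 0 to 1. The Kdr domain had H3K27ac coverage of 2.13% and 8.61% in the warm NCD mice 1 and 2, 72.6% and 22.9% in the cold NCD mice 4 and 5, 0% and 48.9% in the warm HFD mice 7 and 8, and 70.1% and 98% in the cold HFD mice 10 and 11. The cold group overlapped the warm one because mouse 5 was below mouse 8.

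MicroRNA genes were also read off the map of the domains. Of 2054 annotated microRNA genes, 41 (2%) had a start site in 30 of the largest domains, and 29 of the 41 lay in a member region. Some were chosen for display after their values were seen, because the domain has no protein-coding start site nearby or is the largest. The mature sequences (RefSeq, GRCm38.p6) have the seed, bases 2 to 8, in capitals. Let-7b and let-7c of the Ppara domain share 1 seed, and miR-193a and miR-193b of 2 different domains share another.
let-7b-5p, Ppara domain: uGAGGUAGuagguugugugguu
let-7c-5p, Ppara domain: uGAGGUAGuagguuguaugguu
miR-193a-3p, rank 83 domain: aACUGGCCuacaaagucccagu
miR-193b-3p, rank 209 domain: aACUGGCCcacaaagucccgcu
miR-365-3p, rank 83 and rank 209 domains: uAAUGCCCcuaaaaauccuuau

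The miR-193b and miR-365 cluster is known for a part in brown fat differentiation. Its domain (chr16:13437390-13463071, rank 209, 16128 bp) was 78969 bp from the nearest protein-coding start site, that of Mrtfb. The hairpin of Mir193b lay under H3K27ac and H3K4me3 peaks in all 8 mice, and that of Mir365-1 under H3K27ac peaks in 4 mice and no H3K4me3 peak. The second copy, at rank 83 (chr11:79703909-79741917, 23313 bp), was 112697 bp from the start site of Rab11fip4. There the hairpin of Mir193a lay under H3K27ac in 7 mice and under H3K4me3 in 8, and that of Mir365-2 under H3K27ac in 1 mouse and no H3K4me3 peak. Hairpins of let-7c-2 and let-7b lay under H3K27ac peaks in 3 mice and 1 mouse.

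Several genes had more than 1 of the domains. Dlc1 had 3, and 14 further genes had 2, among them Acsl1, Hk2, Prkar2b, Ppargc1b, Tns1 and Col4a1. In Ppargc1b and Acsl1 the second domain (ranks 101 and 253) had no H3K4me3 peak in any mouse, while the first (ranks 32 and 56) had one in all 8. In total 15 of the 300 domains were without H3K4me3 in every mouse, and in all 15 the gene was assigned as nearest. They included those of Slc6a6 (67), Mrtfb (73), Snrk (135), Itsn1 (136) and Elovl6 (151). Of the next 300 domains 28 were without H3K4me3 in every mouse, as were 2071 of the 9468 others. H3K4me3 was present in all 8 mice in 241 of the largest domains, 208 of the next 300 and 5485 of the others.

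Facts of the lists bear on each value. H3K27ac lists held 3224 to 40604 peaks, H3K4me3 13517 to 24104, H3K4me1 12 to 27568 and H3K27me3 20 to 6428. The H3K4me1 lists of mice 7 and 10, both on HFD, held 12 and 18 peaks. Over all members H3K27ac covered 10.6%, 39.2% and 42.6% of region bases in mice 7, 1 and 10, and 67.8% to 87.2% in the other 5. Read depth is unknown, and the part of list length in the values below was not tested. Of the 300 domains 257 had an H3K27ac peak in all 8 mice and 43 in 7. In the next 300 these counts were 186 and 108, and in the 9468 others 1250 and 3315.

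Marks not used to choose the domains could be tested over mice, in exact permutation tests with all 3 marks adjusted together by Benjamini-Hochberg. H3K4me3 peaks covered 21 ± 5.59% (SD, n = 8 mice) of the region bases of the largest domains and 24 ± 6.44% of those of the next 300. The difference was -3.04 percentage points and negative in 8 of 8 mice (exact sign-flip test, two-sided p = 0.00781, adjusted p = 0.0234). This p is the smallest that 8 mice allow. The same regions were read in every mouse, so it measures only how alike the mice were. It gives no independent support over domains. All other domains had 41.3%. Start sites of protein-coding genes with 1000 bp on each side took 11.7% of the region bases of the largest domains, 15.2% of those of the next 300, 36.4% of those of all others and 2.08% of chromosomes 1 to 19. Introns took 57.5%, 54.5% and 35.9% in the 3 sets, and CpG sites numbered 16.5, 18.7 and 29.1 per kb. The part of these shares, and of the ranking by length, in the H3K4me3 difference was not tested. By count of domains the order was the other way, and the part of domain length in this was not tested: 88.8% of the largest had an H3K4me3 peak on average and 80% of the next 300.

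H3K4me1 peaks covered 10.3 ± 10.8% (SD, n = 8) of the largest domains and 9.11 ± 9.38% of the next 300. The difference of 1.24 points was positive in 6 of 8 mice, and the other 2 were mice 7 and 10 (exact sign-flip test, p = 0.0312, adjusted p = 0.0469). It was no longer past 0.05 without any 1 of mice 1, 2, 4, 5, 8 and 11 (exact sign-flip test, adjusted p = 0.0938 each, differences of 0.942 to 1.4). The highest H3K4me1 medians were at Sept9 (rank 286, 35.5%), Zmiz1 (190, 28.9%), Tns1 (4, 28.8%) and Cyth1 (16, 28.7%). H3K27me3 covered 0.00399% on average, and 4 domains had such a peak, in 1 mouse each (p = 1 against the next 300 by the exact sign-flip test).

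**Figure D5:**
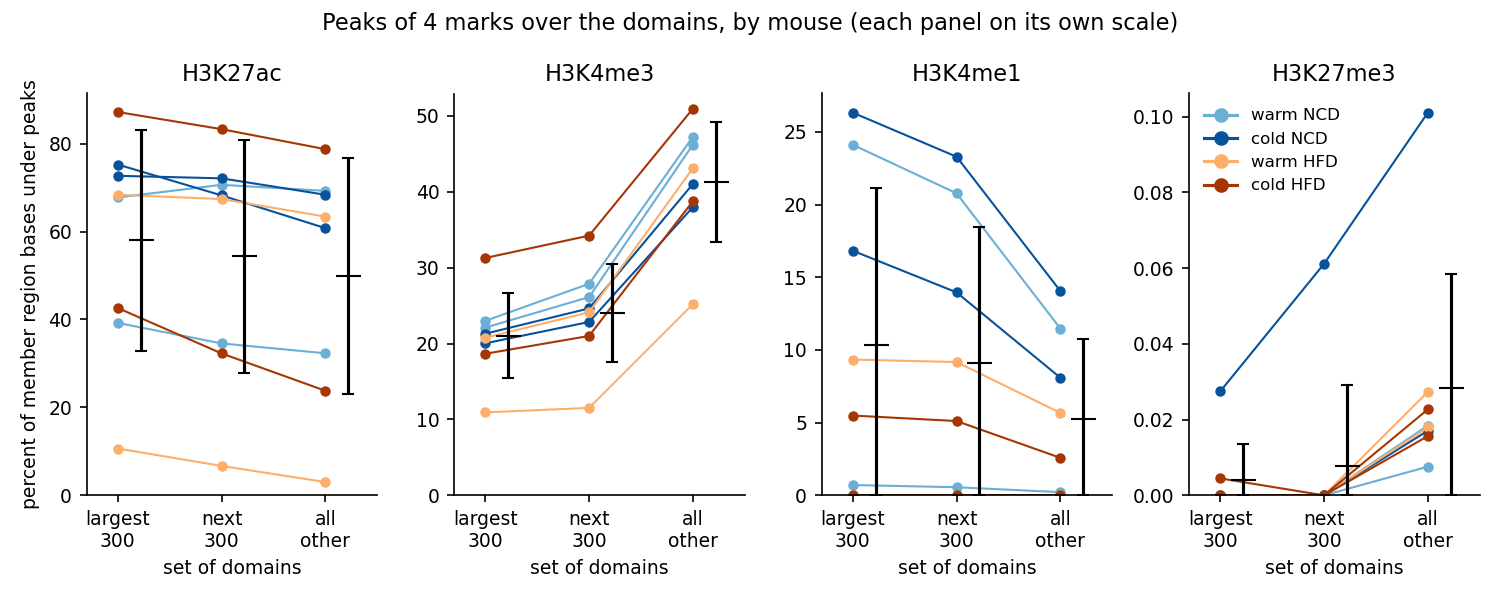
Percent of region bases under peaks of each mark in the 300 largest domains, the next 300 and all others, with a line for each mouse coloured by condition and the mean and SD beside each set (lower bars end at 0). H3K4me3 rises from left to right in all 8 mice, H3K4me1 falls in 6, and each panel has its own scale.

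Between marks in the same 300 domains, H3K4me3 covered 10.7 points more than H3K4me1 (exact permutation test of 8 against 8 libraries, adjusted p = 0.0298), and H3K4me3 was higher in 6 of 8 mice. Both marks were read in the same 8 mice, while this test takes their libraries as independent. The test paired by mouse is given below. Mice 2 and 5, with the longest H3K4me1 lists, had more H3K4me1 (24.1% and 26.3%) than H3K4me3 (23% and 21.3%). The sign turned, to -6.46 points (exact permutation test, adjusted p = 0.179), when domains were rebuilt without regions at start sites. Without mouse 1, 8, 10 or 11 the difference no longer passed 0.05, with values of 8.5 to 10.5 points. H3K4me1 covered 10.3 points more than H3K27me3 (exact permutation test, adjusted p = 0.00528), in 7 of 8 mice. The domains were chosen by acetylation of the lysine that H3K27me3 modifies, and most H3K27me3 lists were short. This outcome was thus largely set in advance, and its p lends no support.

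Temperature and diet were compared through the share of the 300 domains with a peak of each other mark, in exact permutation tests of 4 against 4 mice, where the smallest possible p is 0.0286. With H3K4me3 the share was 90.5 ± 2.73% in cold and 87.2 ± 4.43% in warm mice (p = 0.286), and 87.3 ± 5.33% on HFD and 90.3 ± 0.385% on NCD (p = 0.457 by the same exact test). With H3K4me1 it was 68 ± 45.2% in cold and 53.4 ± 48.5% in warm mice (p = 0.743), and 43.7 ± 50.1% on HFD and 77.8 ± 35.4% on NCD (p = 0.171 by the same exact test). The H3K4me1 differences turned with single lists: HFD minus NCD was -34.1 points with all mice and 9.08 without mice 7 and 10, and cold minus warm was 14.6 with all mice and -3.22 without mouse 7. With H3K27me3 it was 0.333 ± 0.471% in cold mice and 0% in every warm mouse (exact p = 0.429), and 0.0833 ± 0.167% on HFD and 0.25 ± 0.5% on NCD (exact p = 1). None of the 6 differences passed, before or after adjustment over them. The cold effect on NCD minus that on HFD was -5.33 points for H3K4me3 (exact permutation test, p = 0.486), 40.5 for H3K4me1 (p = 0.629) and 0.333 for H3K27me3 (p = 1).

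Single domains were then read for a mark that every mouse of a group carried and every mouse of the opposite group lacked. Of the largest domains 1 met this for H3K4me3 and temperature, against 0.0497% of all 10068 domains. It was the second domain of Fam53b (rank 146), with H3K4me3 in the 4 cold mice and no warm mouse. None met it for H3K4me3 and diet (0.149% of all domains), H3K4me1 and temperature (0%), H3K4me1 and diet (0.0894%), H3K27me3 and temperature (0%) or H3K27me3 and diet (0.0199%).

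Membership changed less with single mice left out than with some choices of ranking, gap and regions. Ranked in each mouse's own list, the top 300 overlapped between 142 (mouse 7) and 242 (mouse 5) of the 300 domains. With regions taken from 7 mice at a time, between 84.3% and 100% of the 300 overlapped a domain of the new top 300. The domains of Ppara, Cd36, Lpl, Ucp1, Cidea, Cebpa, Cebpb, Plin1, Pnpla2, Lipe, Adrb3 and Fabp4 were in the top 300 with each mouse left out. Ranked by span, 69% were overlapped, and Cebpa, Plin1, Lipe, Adrb3 and Fabp4 were no longer among its genes. With a gap of 5000 bp 69.7% were, without Lpl, and with a gap of 25000 bp 80% were, without Lipe. With regions in at least 3 lists 85.7% were, without Adrb3. Without regions at start sites 180 of the 300 were still overlapped, among them those of Ppara, Lpl, Cidea and Cebpb, while Cd36, Ucp1, Cebpa, Plin1, Pnpla2, Lipe, Adrb3 and Fabp4 were no longer genes of the top 300.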

How the data were processed

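Peak lists of 4 histone marks from 8 mice (32 lists, 8 inputs without a list) were used. Per the labels and the methods, the authors trimmed reads with cutadapt, aligned them with Bowtie2 to GRCm38 and called peaks with MACS2 against input. Tool versions and the peak threshold: not given in the sources used here. Deposited columns read here were the fold enrichment (a ratio) at the summit, the −log10 q-value and the summit offset, which is a distance in bp. The lowest −log10 q was 1.3. No read counts were used, so depth is unknown, and a longer list covers more bases. Genes came from GENCODE M21 (GRCm38), sequences from the RefSeq GRCm38.p6 genome. A gene belonged to a domain if a start site lay inside, or if it was nearest where none did. Named genes were those of the 20 largest domains and of the lists, and a few of them are not reported here. Python 3.11.15, numpy 2.4.6, pandas 2.3.3 and scipy 1.17.1 were used, and the tests were tested on simulated data. Exact permutations over mice were two-sided, adjusted within each family. The labels give a number for each list, taken here as 1 mouse. The methods speak of tissue of more than 1 mouse, and whether tissue was pooled is not settled. List lengths deviated together between marks within a condition (Pearson r of 0.653 to 0.955 over 8 mice, 2 in each condition). P-values measure the spread between these mice. In the main tests between marks the libraries of a mouse were taken as independent, which ignores this pairing. The domains and lists were chosen with earlier results of these data known. Alternatives were other stitching gaps, list minima, rankings, q-value limits and comparators, and each mouse left out.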

Additional observations from a re-analysis of the deposited data

Results flagged for a closer look

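Of 37 groups of mice examined for a value far from the others over the largest domains, 13 flags were raised. The rule is set to flag about 1 group in 20 by chance, a rate that does not hold here. The groups share mice, and many values are tied at 0 or 100%. H3K27ac was used to choose the domains, so its flags are a description and carry no test. Mouse 7 had an H3K27ac peak in 86% of the domains, against 99.7% to 100% in the other mice, and was flagged among all mice, the warm and the HFD mice. Mouse 10 had an H3K27ac peak in 99.7% of domains, against 100% in the other cold mice. With H3K4me1, mouse 10 had a peak in 1% of domains against 80.7% to 97% in the other cold mice, and mouse 1 in 24.7% against 93.3% to 97% in the other NCD mice. With H3K27me3, mouse 5, whose list was the longest, had 0.0275% of bases and 1% of domains under peaks, and mouse 11 had 0.00447% and 0.333%, with the other mice at 0. No interaction of temperature and diet passed (exact permutation test, 3 tested).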

How the results depend on the processing

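Of the 250 recomputed values of the tests and of membership, 214 kept their direction and side of 0.05, 14 were weaker, 1 was stronger, 20 turned sign and 1 moved, and the cause was not tested. The lower H3K4me3 share kept both under all 17 alternatives. Membership fell to 180 of 300 without regions at start sites.

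H3K4me1 of the largest minus the next 300 was weaker with a gap of 5000 bp (0.551) and ranked by span (0.44), and ranged from 0.942 to 1.42 with a mouse left out. H3K4me3 minus H3K4me1 was -6.46 without regions at start sites, 28.1 by share of domains (weaker), 9.28 without mice 7 and 10 (weaker), and 8.5 to 12.9 with a mouse left out. The paired exact permutation test with the mouse as replicate block kept 10.7 (adjusted p = 0.0469) and 10.3 for H3K4me1 minus H3K27me3 (adjusted p = 0.0312), and changed no call. Leaving out mice 7 and 10 was chosen after seeing the data.

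Differences that had not passed 0.05 also turned sign, among them large ones in H3K4me1. H3K27me3 of the largest minus the next 300 was 0.000488 with q-values limited, 0.000803 without regions at start sites, 0.0301 by peaks per Mb, -0.00481 to 0.000638 with a mouse left out, and -0.0218 (stronger) against all other domains. HFD minus NCD was 0.0833 for H3K27me3 without regions at start sites or relative to the next 300, 0.917 for H3K4me3 relative to these, and 0.5 and 9.08 for H3K4me3 and H3K4me1 without mice 7 and 10. Cold minus warm relative to the next 300 was -0.417 for H3K4me3 and -1.42 for H3K4me1. The interaction relative to these was 2.5 for H3K4me3, -3.17 for H3K4me1 and -0.167 for H3K27me3, and -0.167 for H3K27me3 without regions at start sites. With a mouse left out, cold minus warm for H3K4me1 ranged from -3.22 (without mouse 7) to 36.9, HFD minus NCD for H3K27me3 from -0.25 to 0.0833, and the interaction from -6 (without mouse 8) to 87 for H3K4me1 and from -0.167 to 0.833 for H3K27me3.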

Other observations

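The domains below were picked after their values were seen, and only Kdr is on a list, that of endothelial markers. The 3 domains without an H3K4me1 peak in any mouse were those of Elk3 (rank 34), Kdr (158) and S1pr1 (287), an ETS factor, a VEGF receptor and a sphingosine phosphate receptor. Such domains numbered 5 in the next 300 and 4199 in the 9468 others. The 4 domains with an H3K27me3 peak, each in 1 mouse, were those of Fli1 (rank 52), an ETS factor, Sox18 (175), a factor of vessel development, Slc16a13 with Bcl6b (218), and Pcdh1 (289). An H3K27me3 peak in at least 1 mouse was found in 3 of the next 300 domains and 40 of the 9468 others. Other genes of development with a domain were the Hoxa cluster (rank 26) and Hoxc4, Hoxc5 and Hoxc6 (292), and H3K4me3 covered a median of 71.7% of the latter.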
